A study of Mus musculus with 20 samples.

Results

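*Bach1*, *Nfe2l2* and *Keap1*, which encode the regulators of the antioxidant response, and 7 of the genes they control (*Hmox1*, *Nqo1*, *Gclm*, *Gclc*, *Txnrd1*, *Srxn1* and *Slc7a11*) were followed through bulk RNA-seq of cardiac endothelial cells (ECs), fibroblasts (FBs) and cardiomyocytes (CMs). The 10 genes were chosen by symbol, with results of these data already known, to ask whether lower *Bach1* goes with higher targets in each cell type and genotype. For each gene and cell type the transcript was selected on the highest mean log2 CPM over all samples, a choice that uses no genotype. All 10 were measured in ECs, among 13934 genes, 9 in FBs among 13568 genes (*Nqo1* was not analysed there) and 9 in CMs among 13043 genes (*Slc7a11* was not analysed there). The tables had been filtered against low expression before their deposit, so the 9 or 10 measured genes are those that passed.

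BACH1 and NRF2 (the product of *Nfe2l2*) compete for the antioxidant response element (ARE), a short DNA motif, each as a partner of a small MAF protein. NRF2 activates genes there, whereas BACH1 represses them until heme binds it and it is removed. KEAP1 holds NRF2 in the cytoplasm and marks it for degradation, and oxidants or electrophiles release it. Both systems act mainly on the protein, so that mRNA levels of *Bach1*, *Nfe2l2* and *Keap1* do not measure their activity.

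The 20 samples comprised 4 wild-type (WT) and 4 *Gadlor*-KO EC samples, 3 and 3 of FBs and 3 and 3 of CMs, all from adult mice 2 weeks after transverse aortic constriction (TAC), which narrows the aorta and loads the left ventricle. Both genotypes had undergone TAC, and sham-operated mice were not analysed here. *Gadlor*-KO mice lack the lncRNAs *Gadlor1* and *Gadlor2* in all tissues, through a homozygous CRISPR-Cas9 deletion on chromosome 16 made in G4 embryonic stem cells, and the line descends from 1 clone injected into C57BL/6 blastocysts. *Bach1* also lies on chromosome 16 (GRCm38, 87698945 to 87733346, plus strand). It neither overlaps nor borders the deleted interval, and an effect of the deletion or of linked sequence on *Bach1* was not tested. The log2 fold change of *Bach1* by genotype was -1.20 in ECs and 0.00 in FBs. In CMs it was 1.06, and -0.09 without sample WT-CM6. ECs had been bound to beads against CD146, FBs taken from the unbound cells with feeder removal beads, and CMs obtained by perfusion and sedimentation. The methods name biological replicates for the study in general, while the labels do not name the animal behind each sample, so that p-values measure the spread among these samples.

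To show where BACH1 and NRF2 could bind, the 250 bases upstream of the transcription start were searched in the RefSeq promoters of build GRCm38.p6, in which 8 of the 10 genes matched an entry and *Hmox1* and *Gclc* are named only. In all, 3 motifs were looked for on both strands: the ARE core TGACNNNGC, which 10.2% of 32851 mouse promoters hold, the stricter motif TGANTCAGC shared by BACH1 and NRF2 (1.02%), and the amino acid response element TGATGNAA of the transcription factor ATF4 (3.45%). A match to the stricter motif with C as its free letter would count under both. The windows of the thioredoxin reductase gene *Txnrd1*, the sulfiredoxin gene *Srxn1*, the glutamate-cysteine ligase subunit gene *Gclm* and the cystine transporter gene *Slc7a11* are printed because each holds a match and the first of them moved with *Bach1* in ECs. Capitals mark the matched letters, and each line reads 5′ to 3′ on the strand of the gene.
Txnrd1: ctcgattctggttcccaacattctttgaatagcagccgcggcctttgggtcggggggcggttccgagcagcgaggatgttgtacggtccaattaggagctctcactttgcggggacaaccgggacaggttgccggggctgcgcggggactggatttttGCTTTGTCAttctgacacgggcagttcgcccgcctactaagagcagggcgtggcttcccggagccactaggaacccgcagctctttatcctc
Srxn1: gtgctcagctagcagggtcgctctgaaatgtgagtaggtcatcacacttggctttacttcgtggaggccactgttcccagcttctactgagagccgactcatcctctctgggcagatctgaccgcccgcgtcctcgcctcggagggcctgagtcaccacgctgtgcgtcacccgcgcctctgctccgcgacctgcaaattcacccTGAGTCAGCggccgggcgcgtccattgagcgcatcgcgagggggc
Gclm: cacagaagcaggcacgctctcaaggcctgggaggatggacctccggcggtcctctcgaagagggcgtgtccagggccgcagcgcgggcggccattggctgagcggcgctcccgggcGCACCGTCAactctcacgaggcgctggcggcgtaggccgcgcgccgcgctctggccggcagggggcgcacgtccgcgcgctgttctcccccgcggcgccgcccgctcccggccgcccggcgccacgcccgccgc
Slc7a11: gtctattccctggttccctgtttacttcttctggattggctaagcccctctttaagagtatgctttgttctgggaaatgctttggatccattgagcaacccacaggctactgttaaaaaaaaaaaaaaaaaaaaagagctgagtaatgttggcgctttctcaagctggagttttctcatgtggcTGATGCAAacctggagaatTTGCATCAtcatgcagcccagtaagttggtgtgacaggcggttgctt

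The *Txnrd1* window lies at chr10:82858956-82859205 on the plus strand and holds an ARE core on the minus strand, at positions -92 to -84 from the RefSeq start. The *Srxn1* window (chr2:152105274-152105523, plus strand) holds the stricter motif at -45 to -37, and that of *Gclm* (chr3:122245307-122245556, plus strand) an ARE core on the minus strand at -134 to -126. *Slc7a11* (chr3:50443614-50443863, minus strand) holds the ATF4 element once on each strand, at -66 to -59 and at -47 to -40. *Nfe2l2* itself has an ARE core at -240 to -232. None of the 3 motifs was found in the windows of *Bach1*, *Keap1* and *Nqo1*, which says only that these letters are not within these 250 bases.

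The effective library size, estimated from the steps between low values, was 40.1 to 55.4 M reads in ECs, 15.0 to 59.8 M in FBs and 10.6 to 20.2 M in CMs. Levels are log2 CPM as deposited. Over 1 row per gene they summed to 1227536 CPM in FB sample WT-260 and 413985 CPM in FB sample WT-283. The sum in WT-260 exceeds what scaling to the plain read total allows, so the effective library sizes above are not counts of sequenced reads. A gene was called higher or lower where the fold change was above 1.5 and the adjusted p under 0.05. Summed endothelial markers lay at 4733 to 5469 CPM in WT against 4834 to 5348 CPM in *Gadlor*-KO ECs. Pericyte and smooth muscle markers summed to 2602 to 3256 CPM and 2694 to 3142 CPM there, against 273 to 363 CPM in WT FBs. Values of the EC libraries therefore need not come from endothelial cells alone. The libraries labelled *Gadlor*-KO CMs went against their label in part: summed cardiomyocyte markers lay at 688 to 7151 CPM, against 32961 to 48746 CPM in WT CMs, and 10 of 10 of these markers fell. In FBs, WT-260 stood apart, with 73.6% of its CPM in mitochondrially encoded genes, against 3.81% and 5.69% in the other WT and 46.3% to 60.9% in *Gadlor*-KO FBs. In bulk samples, fewer cells of a type and less RNA per cell cannot be told apart.

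**Figure D1:**
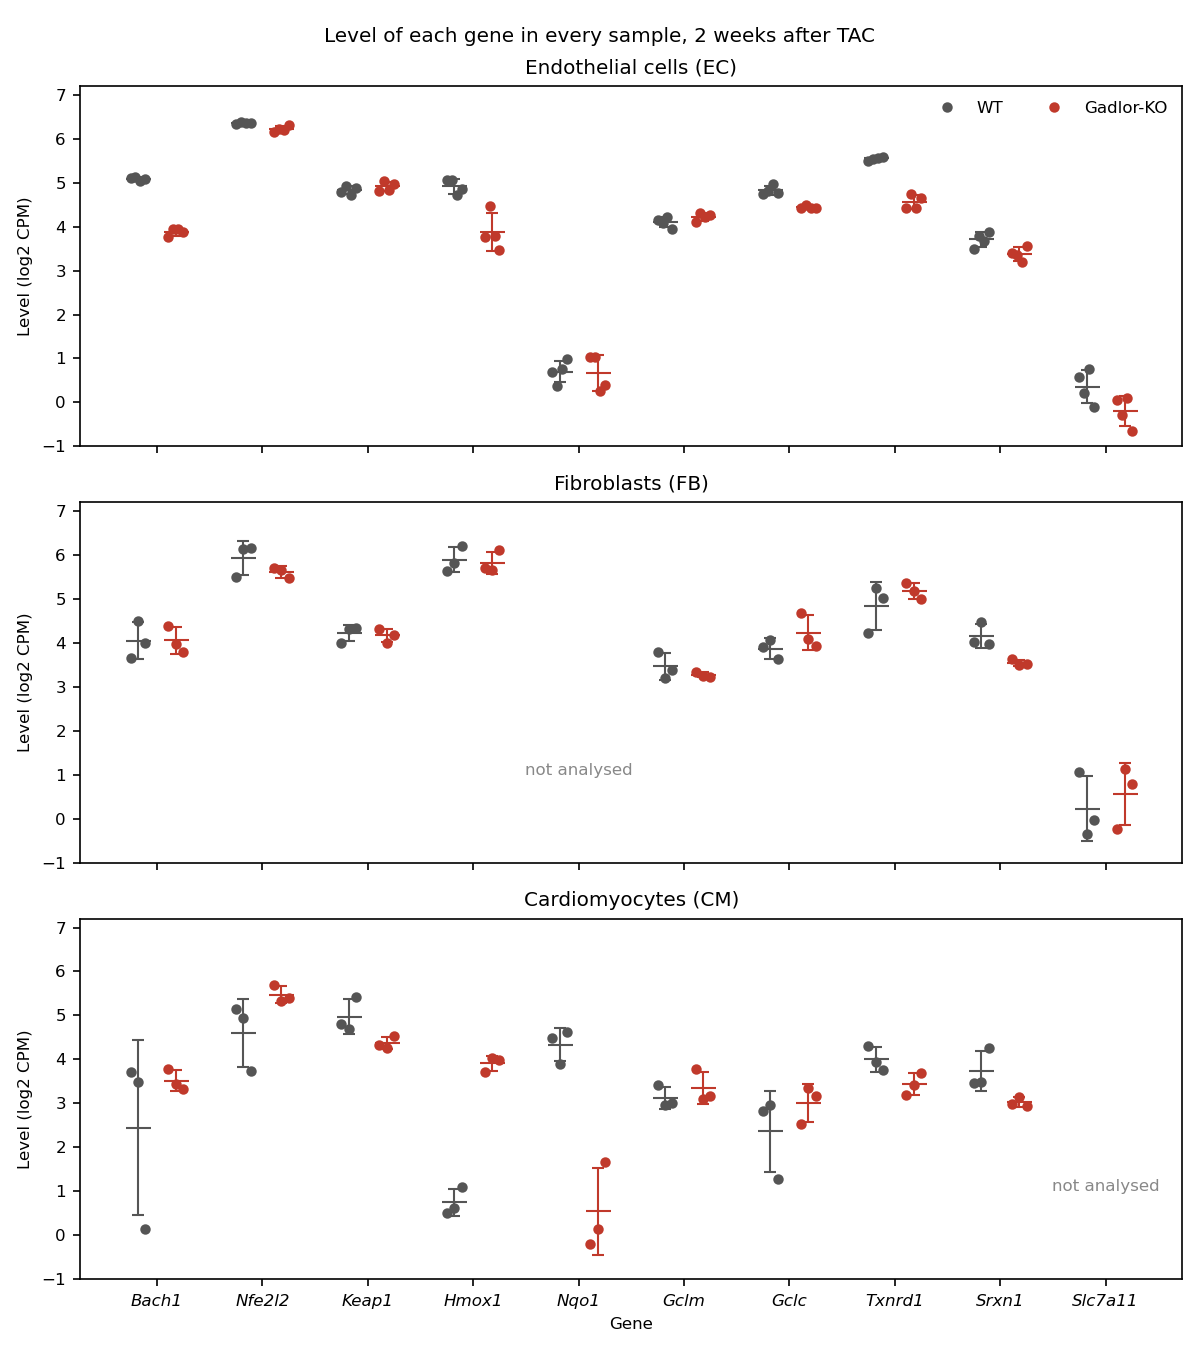
Level of each gene in log2 CPM (vertical axis) in every sample of ECs (top), FBs (middle) and CMs (bottom), WT in grey and *Gadlor*-KO in red, with the mean and SD as bars. In ECs *Bach1* and *Txnrd1* form separate groups by genotype, in CMs *Hmox1* and *Nqo1* do, and CM sample WT-CM6 lies at 0.14 for *Bach1*, far below the other 5 CM samples.

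In *Gadlor*-KO ECs, *Bach1* was lower than in WT ECs and no target was higher by the test. *Bach1* measured 5.10, 5.12, 5.04 and 5.08 log2 CPM in samples WT-31, WT-32, WT-34 and WT-35, against 3.76, 3.95, 3.94 and 3.88 in samples KO-105, KO-108, KO-131 and KO-133. The 4 *Gadlor*-KO values lay close together and more than 1 unit below every WT value. Its log2 fold change was -1.20 (SE 0.06, 95% interval -1.33 to -1.07), that is 2.30-fold lower, and since the question supposes lower *Bach1* it is given as a description. Of the other 9 genes, 2 were lower and 0 higher, where 5.31% and 2.08% of all genes tested were called lower and higher (7.39% in either direction). The median log2 fold change of these 9 was -0.33, against 0.03 over all genes.

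*Nfe2l2*, the gene for the activator NRF2, measured 6.33, 6.38, 6.36 and 6.36 log2 CPM in WT against 6.16, 6.21, 6.20 and 6.32 in *Gadlor*-KO ECs. The groups did not overlap, but the difference of -0.14 (SE 0.05) did not pass (adjusted p from limma = 0.102). *Keap1*, which encodes the adaptor that marks NRF2 for degradation, ranged from 4.72 to 4.92 in WT and from 4.81 to 5.03 in *Gadlor*-KO ECs, with a log2 fold change of 0.09 (95% interval -0.07 to 0.24, adjusted p from limma = 0.397).

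*Txnrd1* encodes cytosolic thioredoxin reductase, which uses NADPH to keep thioredoxin reduced. It measured 5.50, 5.55, 5.56 and 5.59 log2 CPM in WT against 4.43, 4.74, 4.42 and 4.65 in *Gadlor*-KO ECs. As for *Bach1*, all *Gadlor*-KO values lay below all WT values, and *Txnrd1* fell by 0.99 on the log2 scale (SE 0.08, adjusted p from limma = 3.06e-05), to a level 1.99-fold lower. *Hmox1*, which encodes the inducible heme oxygenase and is the best known gene repressed by BACH1, lay at 5.05, 5.06, 4.71 and 4.86 in WT against 3.77, 4.47, 3.79 and 3.46 in *Gadlor*-KO ECs. It fell by 1.05 (SE 0.20, adjusted p from limma = 0.00717). Sample KO-108 was the highest of its group, and without it the log2 fold change was -1.25.

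Macrophages also express *Hmox1*, and their markers differed between the EC libraries. Summed over 12 markers they came to 206 to 368 CPM in WT ECs and to 237, 371, 73.4 and 71.1 CPM in KO-105, KO-108, KO-131 and KO-133. The median log2 fold change of the 12 was -0.88, 0 of them were called, and none lay at the lowest value of the table. Erythroid markers fell at 5 of 5, from 417 to 693 CPM in WT to 246 to 284 CPM. Their part in the fall of *Hmox1* was not tested.

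Glutathione synthesis genes were split. *Gclc*, the catalytic subunit of glutamate-cysteine ligase, measured 4.75, 4.82, 4.97 and 4.76 log2 CPM in WT against 4.42, 4.48, 4.43 and 4.43 in *Gadlor*-KO ECs. The groups did not overlap and the adjusted p from limma was 0.00238, but the log2 fold change of -0.38 (SE 0.06) was under the fold threshold. *Gclm*, the modifier subunit, ranged from 3.95 to 4.22 in WT and from 4.10 to 4.31 in *Gadlor*-KO ECs (log2 fold change 0.12, 95% interval -0.04 to 0.29, adjusted p from limma = 0.271). *Slc7a11*, which imports the cystine from which cysteine for glutathione is made, was near 1 CPM in all samples, at 0.57, 0.22, 0.75 and -0.09 in WT against 0.04, -0.29, 0.09 and -0.64 in *Gadlor*-KO ECs (log2 fold change -0.56, adjusted p from limma = 0.132). Those values overlap.

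*Srxn1*, which encodes the enzyme that repairs overoxidized peroxiredoxins, measured 3.50, 3.78, 3.68 and 3.89 log2 CPM in WT against 3.40, 3.35, 3.20 and 3.57 in *Gadlor*-KO ECs. Its log2 fold change of -0.33 (SE 0.10, adjusted p from limma = 0.0417) was under the fold threshold, and the groups overlapped. *Nqo1*, which encodes a quinone reductase, was low and mixed, at 0.69, 0.38, 0.75 and 0.98 in WT against 1.03, 1.03, 0.25 and 0.40 in *Gadlor*-KO ECs (log2 fold change -0.02, 95% interval -0.51 to 0.47, adjusted p from limma = 0.953). Apart from *Bach1*, 4 of the 9 genes had groups that did not overlap, all 4 lower in *Gadlor*-KO ECs, where 26.2% of all genes did not overlap and 12.6% were lower without overlap. At an adjusted p under 0.05 and any fold change, 4 of the 9 passed, against 21.3% of all genes.

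**Figure D2:**
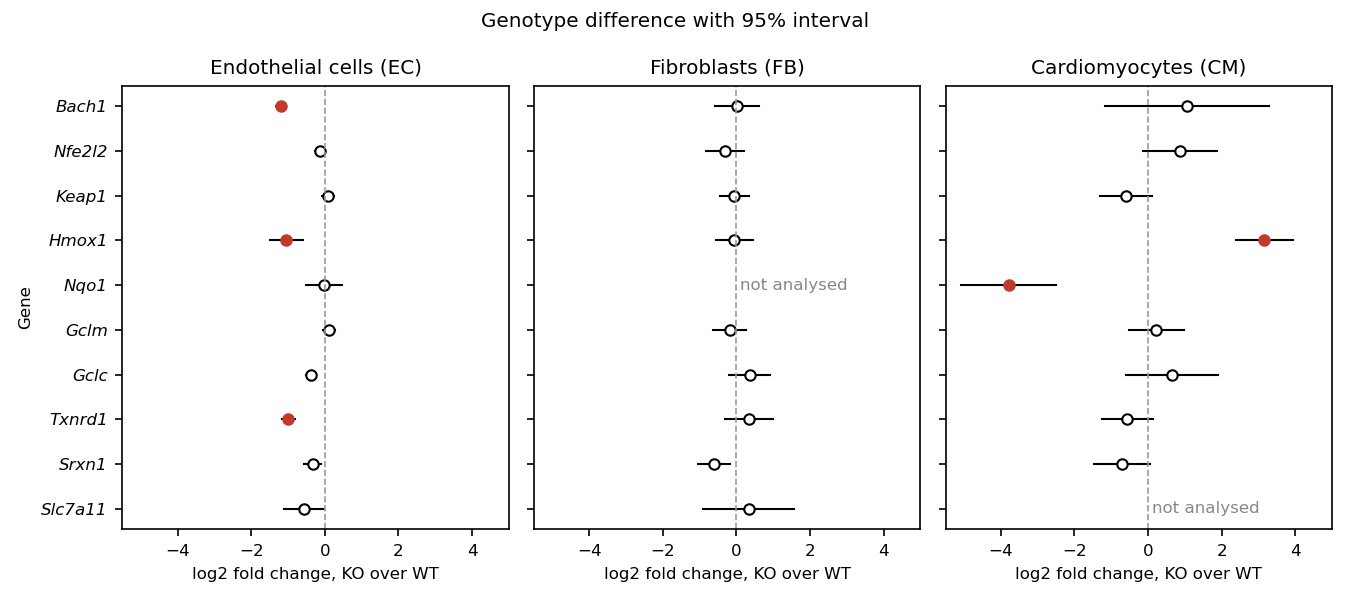
Log2 difference between *Gadlor*-KO and WT (horizontal axis) for each gene in ECs, FBs and CMs, with its 95% interval from limma; filled red points passed both thresholds. *Bach1*, *Hmox1* and *Txnrd1* lie to the left of 0 in ECs, no point is filled in FBs, and *Hmox1* lies at 3.16 and *Nqo1* at -3.79 in CMs.

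Around these genes, the partners and turnover factors of NRF2 and BACH1 showed 0 higher and 3 lower genes of 14 measured in ECs (median log2 fold change -0.13), and all EC lists are to be read beside the 5.31% of all genes called lower and 2.08% called higher. *Nfe2l3*, which encodes an NRF2 relative, went from 1.46 ± 0.47 log2 CPM in the 4 WT samples to -1.31 ± 0.43 in the 4 *Gadlor*-KO samples (SD) and so fell by 2.77 (adjusted p from limma = 1.59e-04). *Sqstm1*, which encodes the autophagy receptor p62 that binds KEAP1, fell by 0.70, and *Mafk*, a small MAF partner of both factors, by 0.66. *Gsk3b*, the gene of a kinase that promotes NRF2 degradation, had -0.19 and was under the fold threshold.

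Of 23 genes of glutathione synthesis and use, 2 were lower and 0 higher (median 0.03): *Gsto1*, an omega-class glutathione transferase, fell by 0.79, and *Chac1*, which degrades glutathione, by 1.06 on the log2 scale. Of 14 thioredoxin and peroxiredoxin genes, *Txnip*, which encodes an inhibitor of thioredoxin, rose by 0.95 (SE 0.09, adjusted p from limma = 5.7e-05), and the stress gene *Sesn2* fell by 0.62, just past the fold threshold. The 14 summed to 576 to 671 CPM in WT and 910 to 1052 CPM in *Gadlor*-KO ECs, without overlap, and *Txnip* was at 8.70 ± 0.12 and 9.65 ± 0.11 log2 CPM (mean ± SD, n = 4 each). None of 4 superoxide dismutase and catalase genes, 6 genes of NADPH supply and 16 other NRF2 target genes passed both thresholds in limma, and 0 did with p before adjustment (medians 0.05, 0.09 and 0.00).

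Of 15 heme and iron genes in ECs, *Tfrc*, the transferrin receptor, went from 2.72 ± 0.34 log2 CPM in the 4 WT samples to 1.29 ± 0.54 in the 4 *Gadlor*-KO samples (SD) and so fell by 1.42 (adjusted p from limma = 0.00676). *Ftl1*, a ferritin subunit with many near-identical copies in the genome, had -0.39 and was under the fold threshold. The ATF4 stress response, which also drives *Slc7a11* and shares *Chac1* and *Sesn2* with the lists above, had 5 lower genes and 1 higher gene of 11 (median 0.06). *Atf4* itself fell by 0.73, its partner *Ddit3* by 0.92, *Atf3* by 1.46, *Chac1* by 1.06 and *Sesn2* by 0.62, whereas *Ddit4*, an inhibitor of mTORC1, rose by 1.34. Beside these values, 10 of 11 immediate early genes, which respond to acute stimuli and to tissue digestion, fell in the same libraries, from 20111 to 23030 CPM summed in WT to 7714 to 11355 CPM. Their part in the lower stress genes, and in the lower *Bach1*, *Hmox1* and *Txnrd1* of the same libraries, was not tested.

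**Figure D3:**
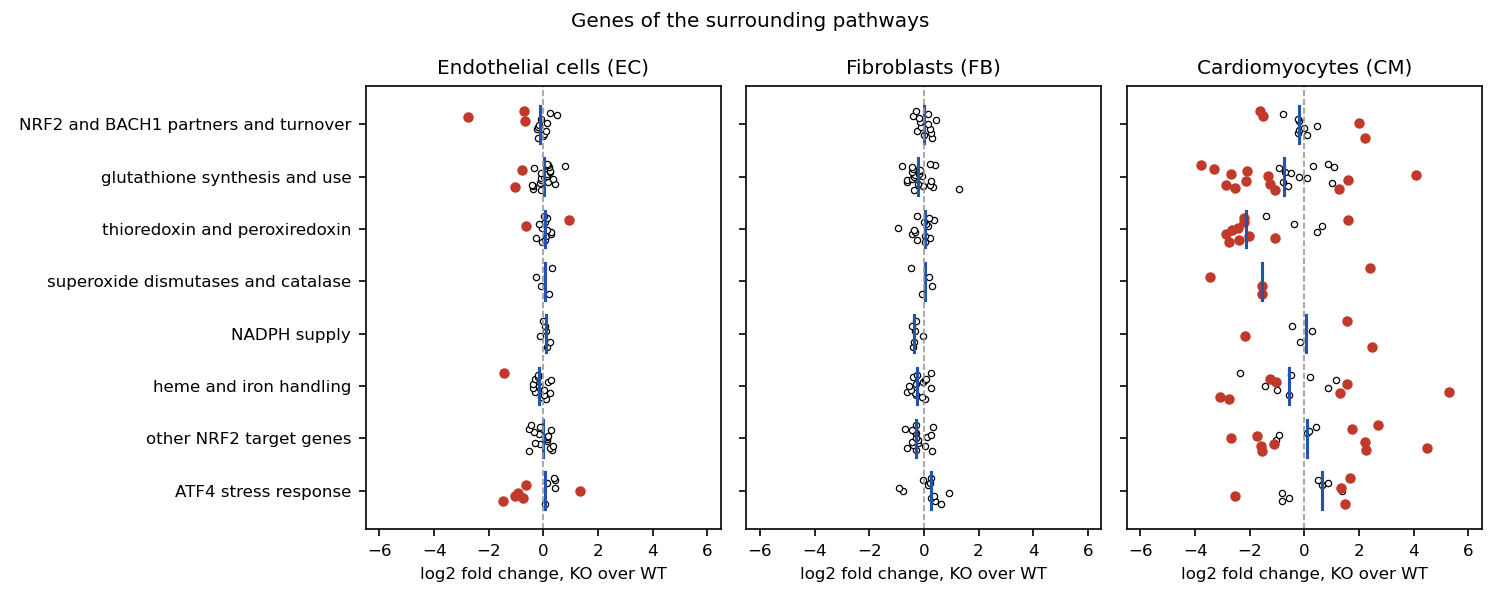
Log2 difference between *Gadlor*-KO and WT (horizontal axis) for the genes of 8 related lists in ECs, FBs and CMs, with genes past both thresholds in red and the median of each list as a blue bar. Most points lie near 0 in ECs and FBs, and the lists spread widely in CMs, with the thioredoxin and peroxiredoxin list at a median of -2.13.

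In FBs, none of the 9 genes measured passed, where 0.00737% of all genes were called in either direction, which is 1 gene. By p before adjustment under 0.05 and the same fold change, 954 genes (7.03%) were higher and 595 (4.39%) lower, and *Srxn1* was 1 of the latter (p from limma before adjustment = 0.0113). *Bach1* measured 3.67, 4.50 and 3.99 log2 CPM in samples WT-260, WT-277 and WT-283, against 4.39, 3.97 and 3.80 in KO-240, KO-241 and KO-242. The values were interleaved, with a log2 fold change of 0.00 (95% interval -0.60 to 0.61), an interval that does not include the value seen in ECs. *Bach1* differences of the 2 cell types come from separately normalized tables and were not tested against each other.

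*Srxn1* was the only one of the 9 without overlap in FBs, at 4.02, 4.48 and 3.97 log2 CPM in WT against 3.63, 3.50 and 3.52 in *Gadlor*-KO samples (a difference of -0.61 with SE 0.18, adjusted p from limma = 0.204), where 21.3% of all genes had no overlap and 9.09% were lower without it. *Txnrd1* lay at 4.23, 5.26 and 5.03 in WT against 5.36, 5.18 and 5.01 in *Gadlor*-KO FBs. WT-260 was the lowest, the others overlapped, and the log2 fold change of 0.35 (SE 0.28) was 0.04 without that sample. *Hmox1* lay at 5.64, 5.83 and 6.20 in WT against 5.71, 5.66 and 6.12 in *Gadlor*-KO FBs, a difference of -0.06 (95% interval -0.57 to 0.44).

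*Nfe2l2* measured 5.49, 6.14 and 6.15 log2 CPM in WT against 5.71, 5.67 and 5.47 in *Gadlor*-KO FBs. WT-260 fell among the *Gadlor*-KO values, and the log2 fold change moved from -0.31 to -0.53 without it (adjusted p from limma = 0.561 and 0.0825). *Keap1*, *Gclm*, *Gclc* and *Slc7a11* had log2 fold changes of -0.05, -0.19, 0.36 and 0.33 (adjusted p from limma at least 0.525). The median of the 9 was -0.05, against 0.01 over all genes. Summed endothelial markers, a sign of other cells in these libraries, lay at 483, 54.2 and 91.3 CPM in WT-260, WT-277 and WT-283 and at 813 to 1334 CPM in *Gadlor*-KO FBs, and their part in these differences was not tested.

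No gene of the 8 related lists passed in FBs by limma. By p before adjustment and the same fold change, 1 of 100 was higher and 5 were lower. Of all genes, 7.03% were higher and 4.39% lower by this rule, so that the 5 lower genes are near the share of all genes. Among those with the smallest adjusted p, *Prdx6*, a peroxiredoxin, had a log2 fold change of -0.95 (adjusted p from limma = 0.166), *Abcc4*, an exporter, 1.29 (0.175), *Psat1*, an enzyme of serine synthesis, -0.91 (0.202), and *Fech*, the last enzyme of heme synthesis, -0.48 (0.226). In each of these 4 genes the groups did not overlap, as in 21.3% of all genes. Since the 4 were picked for a small adjusted p, which favours separate groups, this adds no support. Without WT-260, 1 glutathione gene was higher and 1 thioredoxin and peroxiredoxin gene lower, while the number of all genes called rose from 1 to 1275.

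**Figure D4:**
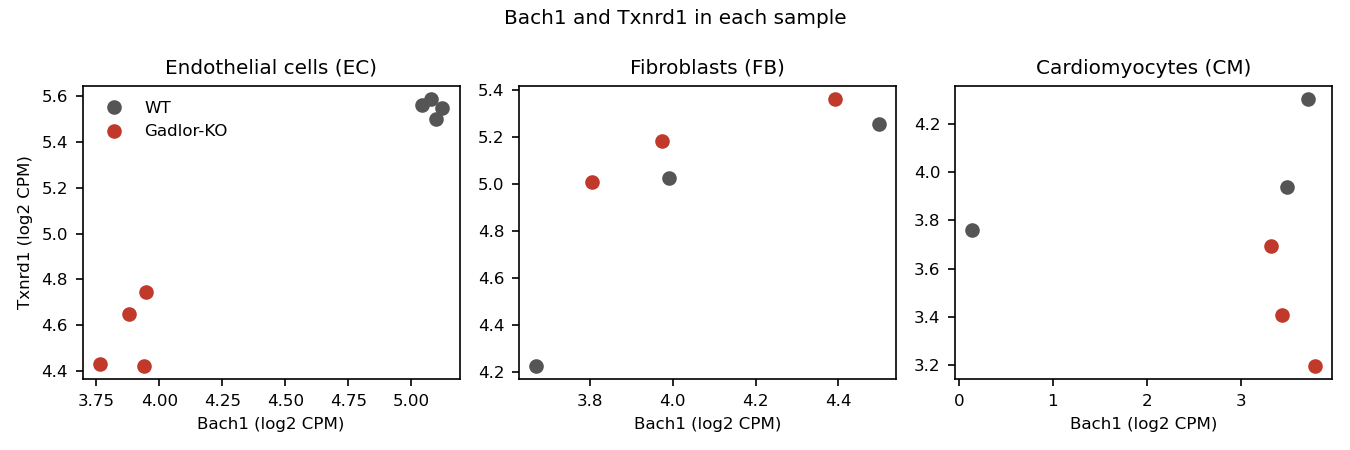
*Bach1* (horizontal axis) and *Txnrd1* (vertical axis) in log2 CPM in every sample of ECs, FBs and CMs, WT in grey and *Gadlor*-KO in red, with different axis ranges per panel. In ECs the *Gadlor*-KO samples lie lower on both axes, in FBs the genotypes mix, and in CMs *Txnrd1* is lower in *Gadlor*-KO samples at *Bach1* values like those of WT-CM1 and WT-CM2.

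In the CM libraries, *Gadlor*-KO samples had more *Hmox1* and less *Nqo1* than WT samples, while *Bach1* showed no difference that passed. Of the 9 genes, 1 was higher and 1 lower, where 40.9% of all genes were called in either direction (21.3% higher and 19.6% lower), so that the share of the 9 was below that of all genes. Of the 9, 6 had no overlap (2 higher, 4 lower), against 59.5% of all genes (31.1% higher, 28.4% lower). *Bach1* measured 3.71, 3.49 and 0.14 log2 CPM in samples WT-CM1, WT-CM2 and WT-CM6, against 3.78, 3.43 and 3.32 in KO-CM1, KO-CM2 and KO-CM3. WT-CM6 decides the difference of 1.06 (SE 0.93, adjusted p from limma = 0.403), which was -0.09 without it (adjusted p = 0.748).

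*Hmox1* measured 0.50, 0.63 and 1.10 log2 CPM in WT against 3.72, 4.03 and 3.98 in *Gadlor*-KO CM samples. All *Gadlor*-KO values were more than 2 units above all WT values, and *Hmox1* rose by 3.16 on the log2 scale (SE 0.33, adjusted p from limma = 0.00453), 8.97-fold. In the same libraries 12 of 12 macrophage markers rose (median log2 fold change 4.77), from 11.8 to 38.7 CPM summed in WT to 1254, 407 and 407 CPM in KO-CM1, KO-CM2 and KO-CM3, and none lay at the lowest value of the table. *Cd163*, the hemoglobin scavenger receptor of macrophages that also stands in the heme and iron list, rose by 5.29. Fibroblast markers rose at 9 of 10 and endothelial markers at 10 of 10. KO-CM1 stood apart, with erythroid markers at 15624 CPM, against 51.2 and 102 CPM in KO-CM2 and KO-CM3 and 0.495 to 66.5 CPM in WT, and epicardial markers at 845 CPM, against 45.1 and 48.6 CPM and 5.50 to 12.3 CPM in WT. Without KO-CM1 the log2 fold change of *Hmox1* was 3.26 (adjusted p from limma = 0.0136). The part of these cells in the rise of *Hmox1* was not tested.

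*Nqo1* measured 4.49, 3.90 and 4.62 log2 CPM in WT against -0.19, 0.14 and 1.67 in *Gadlor*-KO CM samples. The groups lay far apart, and *Nqo1* fell by 3.79 (SE 0.55, adjusted p from limma = 0.00578), a level 13.9-fold lower. KO-CM3 was the highest of its group, and it also held the most cardiomyocyte marker RNA, 7151 CPM against 1127 and 688 CPM in KO-CM1 and KO-CM2. The median log2 fold change of the 10 cardiomyocyte markers was -4.33, so that *Nqo1* fell less than their median, and their part in the fall was not tested.

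**Figure D5:**
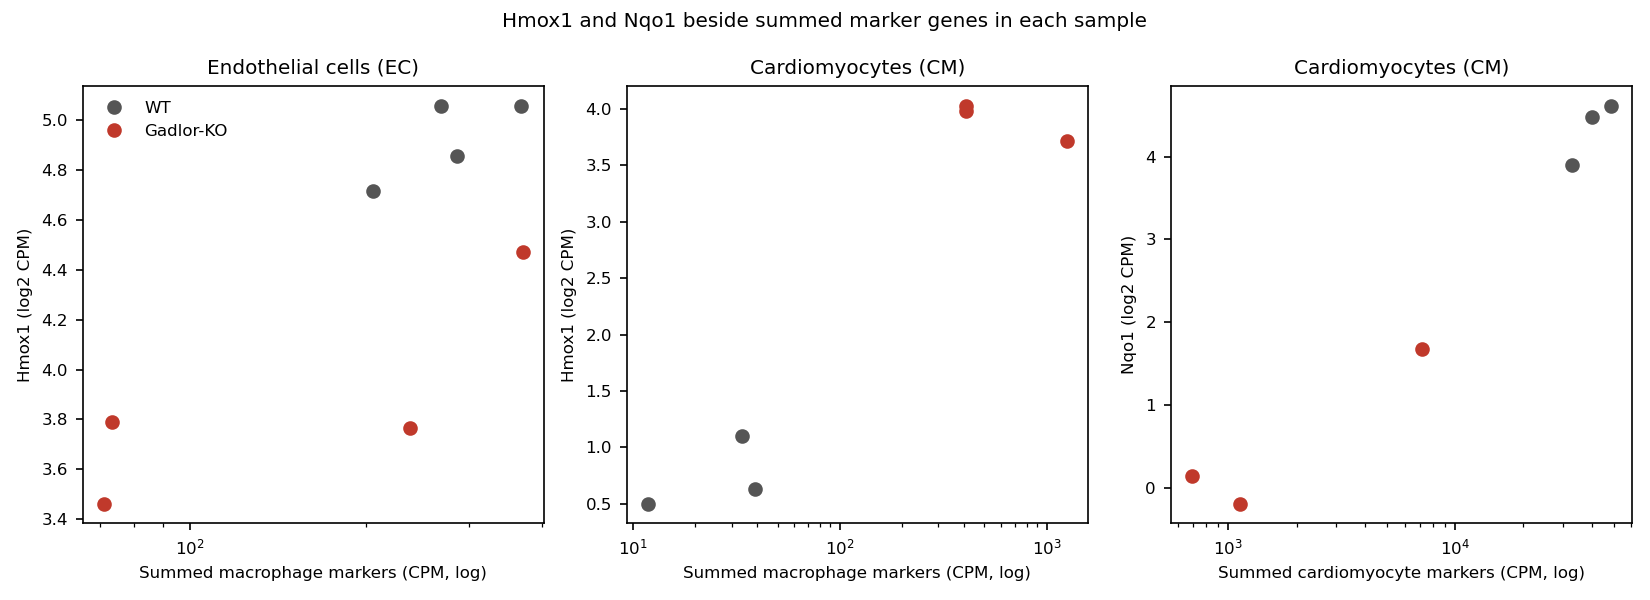
*Hmox1* in ECs (left) and CMs (middle) against summed macrophage markers, and *Nqo1* in CMs (right) against summed cardiomyocyte markers, per sample; vertical axes in log2 CPM, horizontal axes in CPM on a log scale, WT in grey and *Gadlor*-KO in red. In ECs macrophage markers range from 206 to 368 CPM in WT and from 71.1 to 371 CPM in *Gadlor*-KO samples, and in the CM libraries marker level and gene level change together with genotype.

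*Nfe2l2* measured 5.14, 4.94 and 3.73 log2 CPM in WT against 5.69, 5.33 and 5.39 in *Gadlor*-KO CM samples, without overlap, at a log2 fold change of 0.87 (SE 0.42, adjusted p from limma = 0.145) that was 0.43 without WT-CM6. *Keap1* lay at 4.81, 4.69 and 5.42 in WT against 4.32, 4.26 and 4.53 in *Gadlor*-KO samples, also without overlap (-0.60, adjusted p from limma = 0.156). In WT-CM6, *Bach1*, *Nfe2l2*, *Gclc* and *Txnrd1* were the lowest and *Keap1*, *Hmox1*, *Nqo1* and *Srxn1* the highest of the WT samples. The whole library differed as well: its median over all genes was 2.31 log2 CPM, against 2.83 and 2.85 in WT-CM1 and WT-CM2. Mitochondrially encoded genes held 26.7% of its CPM, against 46.8% and 46.6%.

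*Txnrd1* measured 4.30, 3.94 and 3.76 log2 CPM in WT against 3.20, 3.41 and 3.69 in *Gadlor*-KO CM samples, without overlap (log2 fold change -0.57, adjusted p from limma = 0.165). Without WT-CM6 it passed, at -0.69 (adjusted p = 0.0484). *Srxn1* lay at 3.45, 3.49 and 4.25 in WT against 2.98, 3.15 and 2.93 in *Gadlor*-KO samples (-0.71, adjusted p from limma = 0.119). *Gclm* and *Gclc* overlapped between genotypes (0.23 and 0.65, adjusted p from limma = 0.608 and 0.364). With CPM rescaled without mitochondrially encoded genes, which held 26.7% to 46.8% of the CPM in WT against 65.1% to 75.6% in *Gadlor*-KO CMs, the signs of *Keap1* (0.14), *Txnrd1* (0.17) and *Srxn1* (0.03) turned, while the median over all genes moved from 0.15 to 0.89.

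The related lists changed in the CM libraries along with 40.9% of all genes, and in samples that differ in their cells as described above. All CM lists are to be read beside the 21.3% of all genes called higher and 19.6% called lower. Of 14 thioredoxin and peroxiredoxin genes, 9 fell and 1 rose (median log2 fold change -2.13). *Msra*, which repairs oxidized methionine, fell by 2.76, the mitochondrial peroxiredoxin *Prdx3* by 2.88, the mitochondrial thioredoxin reductase *Txnrd2* by 2.21 and the peroxiredoxin *Prdx6* by 2.41, while *Txnip* rose by 1.58 as it did in ECs. Of the 4 superoxide dismutase and catalase genes, the mitochondrial *Sod2* fell by 3.47, the cytosolic *Sod1* by 1.56 and *Cat* by 1.56, and the extracellular *Sod3* rose by 2.42.

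Of 24 glutathione genes, 10 fell and 3 rose (median -0.76), among them *Glrx*, a glutaredoxin, with -2.88, *Gpx4*, which reduces lipid hydroperoxides, with -2.12, the glutathione transferase *Gsta4* with -2.70 and *Chac1* with -2.56. Genes of NADPH supply rose at 2 of 6 and fell at 1: *G6pdx*, the entry enzyme of the pentose phosphate pathway, rose by 2.48 and *Tkt*, transketolase, by 1.56, while *Me1*, cytosolic malic enzyme, fell by 2.18. Heme and iron genes rose at 3 of 15 and fell at 4, with *Alas1*, which starts heme synthesis outside red cells, at -3.07, the iron transporter *Slc11a2* at -1.27 and *Abcb6* at -2.74.

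Of 12 partners and turnover factors, *Bach2*, a relative of *Bach1* known from lymphocytes, rose by 2.24 and the small MAF gene *Maff* by 2.00, and *Sqstm1* and *Nfe2l1* fell by 1.64 and 1.52. Without KO-CM2, 0 of these 12 passed, while the number of all genes called fell from 5331 to 2984. Of 15 other NRF2 target genes, 5 rose and 5 fell, for example *Aldh1a1*, a retinaldehyde dehydrogenase, by 4.49 and *Ephx1*, microsomal epoxide hydrolase, by 2.23 upward, and *Mt1*, a metallothionein, by 2.70 downward. Of 11 ATF4 genes, 3 rose (*Trib3*, *Asns* and *Psat1*, by 1.65, 1.48 and 1.33) and *Chac1* fell. When single samples were left out, the number called ranged from 1 to 8, and that of all genes from 2984 to 7055.

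Levels in WT samples are set side by side without a test, since the tables were normalized separately. *Bach1* was at 5.08 ± 0.03 log2 CPM in ECs (mean ± SD, n = 4), at 4.05 ± 0.42 in FBs and at 2.45 ± 2.00 in CMs (n = 3 each), where 2 of the 3 samples lay at 3.71 and 3.49. FBs and CMs therefore do not differ beyond their spread. *Nfe2l2* was at 6.36 ± 0.02 in ECs, 5.93 ± 0.38 in FBs and 4.60 ± 0.76 in CMs. *Keap1* was at 4.83 ± 0.09, 4.22 ± 0.19 and 4.97 ± 0.39, with ECs and CMs within their spread.

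The targets divided by cell type. *Hmox1* was at 5.89 ± 0.29 log2 CPM in WT FBs, at 4.92 ± 0.17 in WT ECs and at 0.74 ± 0.31 in WT CMs, the lowest of the 3 by a wide margin. Summed macrophage markers followed this order: 901 to 1878 CPM in WT FBs, 206 to 368 in WT ECs and 11.8 to 38.7 in WT CMs. Their part in the order of *Hmox1* was not tested. Between ECs and CMs, *Nqo1* had the opposite order to *Hmox1*, at 4.33 ± 0.38 in WT CMs and 0.70 ± 0.25 in WT ECs, and it was not analysed in FBs. *Txnrd1* was at 5.55 ± 0.04 in ECs, 4.84 ± 0.54 in FBs and 4.0 ± 0.28 in CMs, and *Gclc* at 4.82 ± 0.10, 3.87 ± 0.23 and 2.36 ± 0.93. *Gclm* was at 4.10 ± 0.11, 3.47 ± 0.30 and 3.12 ± 0.25, the last 2 within their spread, and *Srxn1* at 3.71 ± 0.17, 4.16 ± 0.28 and 3.73 ± 0.45, with ECs and CMs within their spread. *Slc7a11* lay at 0.36 ± 0.37 in ECs and 0.23 ± 0.74 in FBs, also within their spread.

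Lower *Bach1* was seen with lower *Hmox1* and *Txnrd1* in *Gadlor*-KO ECs, and higher *Hmox1* in the CM libraries was seen at *Bach1* levels of 3.32 to 3.78, against 3.71 and 3.49 in WT-CM1 and WT-CM2. None of the 7 targets was higher by the test in the ECs, the cell type in which *Bach1* was lower by genotype. Only 2.08% of all genes were called higher there, so that none of 7 does not set the targets apart. With at most 4 samples per genotype, no correlation between *Bach1* and its targets was computed.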

How the data were processed

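Isolated cardiac cells were measured by bulk RNA-seq in 20 samples. The authors deposited log2 CPM per transcript and sample, in a table for each cell type. The deposited columns with the log2 fold change, the mean log2 CPM, a likelihood ratio score and the p-value and FDR hold the authors' own comparison and were not used. The methods name strand-specific single-end sequencing, FastqCleaner, bowtie2, mm10, biomaRt and edgeR, and the submitters' processing notes name Bowtie2, DESeq2 and mm10. Versions, the counting tool and the filter on low values are not given in the sources used here.

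For each gene the transcript with the highest mean was kept, so reads shared with near-identical copies or overlapping genes could not be checked. Genotypes were fitted within each table with limma 3.58.1 (trend, robust, statmod 1.5.0, R 4.3.3), adjusted by Benjamini and Hochberg over all genes of the table. No pseudocount or filter was added to the deposited values. These values end at a lowest value in each cell type, so changes of genes near it can be understated. Library sizes were estimated from the steps between low values, which fix the precision of low genes. Alternatives were pseudocounts of 1 and 5 CPM, a minimum mean of 1 CPM, the mean over transcripts, median centring, rescaling, another variance model, Y-linked level as a covariate, a replicate block in CMs and leaving out each sample. The code was tested on simulated data. The 10 genes, the related lists and the markers were chosen with earlier results of these data known. Named genes are the 10 and, per list and cell type, up to 4 with the smallest adjusted p, called ones first. Exceptions chosen after their values were seen are *Atf3* and *Chac1* in the ATF4 list in ECs, and *Txnip* in CMs. Promoters came from RefSeq (GRCm38.p6). *Gadlor1* and *Gadlor2* levels were not analysed here, so the genotype labels were not checked. Python 3.11.15, pandas 2.3.3, numpy 2.4.6 and matplotlib 3.10.9 were used.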

Additional observations from a re-analysis of the deposited data

Results flagged for a closer look

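*Hmox1* moved in opposite directions in ECs and in the CM libraries. Its log2 fold change by genotype was -1.05 in ECs, where every *Gadlor*-KO sample lay below every WT sample, and 3.16 in CMs, where every *Gadlor*-KO sample lay above every WT sample. *Nfe2l2* had the same arrangement with smaller differences, -0.14 in ECs and 0.87 in CMs, neither of which passed the test within its cell type. These differences between cell types were not tested, because the tables were normalized separately, and the *Gadlor*-KO CM libraries differ from the WT ones in their cell markers.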

How the results depend on the processing

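In ECs 3 of the 10 genes, *Bach1* included, were lower under all 16 alternatives, in FBs 0 of 9 were called under all 14, and in CMs 2 or 3 of 9 were called under 14. The third in CMs was *Nfe2l2* (1.61, adjusted p from limma = 0.0446) after rescaling without mitochondrially encoded genes, and *Txnrd1* with a replicate block or without WT-CM6. Under these alternatives, all genes called ranged from 416 to 1098 in ECs, from 0 to 1275 in FBs and from 2984 to 7055 in CMs. Of 412 log2 fold changes of the 28 pairs of gene and cell type under alternatives, 391 kept their direction and side of the threshold. Reversed values were 0.018 for *Nqo1* in ECs, 0.082 for *Keap1* and 0.074 for *Hmox1* in FBs and 0.14, 0.17 and 0.026 for *Keap1*, *Txnrd1* and *Srxn1* in CMs, all by rescaling, and -0.059 for *Bach1* in FBs by median centring. Leaving out single samples gave -0.14 to 0.12 for *Nqo1* in ECs, -0.19 to 0.23 for *Bach1*, -0.16 to 0.028 for *Keap1* and -0.21 to 0.094 for *Hmox1* in FBs, and -0.089 to 1.70 for *Bach1* in CMs. The cause was not tested.

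All genes called in ECs numbered 1030, and 416 at a pseudocount of 5 CPM, which shrinks low genes. In FBs 1 gene was called, against 2 and 6 at pseudocounts of 1 and 5 CPM, 0 after rescaling, 4 without trend and robust moderation, 0 with the Y-linked covariate, and 0 to 1275 when single samples were left out, with 1275 without WT-260. In CMs 5331 were called, 2984 (without KO-CM2) to 7055 when single samples were left out. After rescaling, 4408 were higher and 1495 lower, against 2775 and 2556. WT and *Gadlor*-KO CMs share only the numbers 1 and 2, and their deviations correlated at 0.05 and 0.08, so the numbers are not shown to pair the samples. A replicate block on them gave 6759 genes, with *Txnrd1* at -0.82 (adjusted p = 0.0408) and *Bach1* at 0.01. *Nqo1* in ECs and *Slc7a11* in ECs and FBs lie near 1 CPM, where depth limits the precision.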
